A study of Mus musculus with 15 samples.

Results

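The genes described here are 8 members of the JAK-STAT signaling families, namely the transcription factors Stat2, Stat3, Stat4 and Stat6 and the Janus kinases Jak1, Jak2, Jak3 and Tyk2. They were taken by gene name from a table of 32544 gene rows, and all 8 were among the 15494 genes that passed the filter on low counts. RNA was sequenced from 15 subcutaneous tumors of WEHI-164, a mouse fibrosarcoma line, grown in wild-type female BALB/c mice. The tumors fell into 5 groups of 3 by harvest day. Day 0 tumors were untreated, and the day 1, day 3, day 5 and day 7 tumors received poly(I:C), a synthetic double-stranded RNA that stimulates Toll-like receptor 3, by daily injection into the tumor. The labels give 1 µg in 25 µL per injection with 6 doses planned, while one legend of the study names a higher daily dose, so the dose is not certain. No group of time-matched tumors injected with vehicle was analysed here, so harvest day, tumor growth and the number of injections cannot be told apart. All groups carried the same line in the same strain, and each tumor was a mixture of fibrosarcoma cells and host cells.

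Janus kinases sit on the inner side of cytokine receptors and phosphorylate STAT proteins, which then enter the nucleus and bind DNA. Type I interferon receptors use Tyk2 and Jak1 and signal through Stat2 with its partner Irf9, and the interferon gamma receptor uses Jak1 and Jak2. Interleukin 6 and other cytokines of the gp130 family act mainly through Stat3, interleukin 12 through Tyk2, Jak2 and Stat4 in T and NK cells, and interleukins 4 and 13 through Stat6. Jak3 binds only the common gamma chain of lymphocyte cytokine receptors. In the GENCODE M21 annotation of GRCm38, the STAT genes lie with Stat2 at chr10:128270559-128292849 (plus strand), Stat3 at chr11:100885098-100939540 (minus strand), Stat4 at chr1:51987148-52107189 (plus strand) and Stat6 at chr10:127642986-127660957 (plus strand). The kinase genes lie with Jak1 at chr4:101152367-101265282 (minus strand), Jak2 at chr19:29251828-29313080 (plus strand), Jak3 at chr8:71676296-71690575 (plus strand) and Tyk2 at chr9:21104068-21131243 (minus strand). RNA levels, which are what was measured, do not report phosphorylation of any of these proteins.

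DNA motifs of 2 kinds are tied to this family, the interferon-stimulated response element bound by the Stat2 and Irf9 complex and the gamma-activated site bound by STAT dimers. Promoters of 300 bases, from 250 before to 50 after the start site, were taken from RefSeq on the GRCm38.p6 build and were found for all 8 genes, with a second promoter for Stat4. The letters GAAANNGAAA of the response element, read on both strands, occurred in 3.44% of 32851 mouse promoters. They occurred in the promoters of Stat2 and Stat4 and in none of the other 6 genes. The 2 windows are printed because these 2 genes also showed the largest differences between days, a choice made with those differences known. Stat4 has the match in its second promoter only, and any link between a match and the RNA level was not tested. Capitals mark the match, the sequences are written along the gene's strand, and the Stat2 match lies on the opposite strand.
Stat2: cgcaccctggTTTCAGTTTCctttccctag
Stat4: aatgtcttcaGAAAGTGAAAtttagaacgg
The Stat2 match started at position -222 of the promoter at chr10:128270248-128270547, and the Stat4 match at position -97 of its second promoter at chr1:52007990-52008289. Both promoters are on the plus strand. The letters TTCNNNGAA of the gamma-activated site, which read the same on both strands, occurred in 8.3% of all promoters and in none of the 8 genes. A match describes letters in this window and is not evidence of binding.
For comparison, 2 genes known as products of the pathway are shown, the ubiquitin-like Isg15 with 3 overlapping response elements, of which the first is given, and the inhibitor Socs3 with a gamma-activated site. Not all pathway genes hold a match, and Irf9 had none of either kind in its promoters. Of 12 listed Stat2 partner and target genes with a promoter in the set, 6 held the response element. Of 9 such Stat3 targets, 2 held the gamma-activated site.
Isg15: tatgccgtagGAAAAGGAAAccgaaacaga
Socs3: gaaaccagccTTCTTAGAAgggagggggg
They lay at position -78 of chr4:156200769-156201068 and position -154 of chr11:117969317-117969616, with both promoters on the minus strand.

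Total counts were 23713090 to 31913106 per tumor, and levels are given as CPM, counts scaled to a common library size after normalization by the trimmed mean of M values (TMM). A count of 3 corresponded to 0.0972 to 0.125 CPM, and the lowest count of any of the 8 genes was 33, for Stat4. One tumor stood apart. Day 3 replicate 1 had a mean correlation of 0.884 with the other tumors over log2 CPM, against 0.956 or more for each of the rest, and its skeletal muscle markers summed to 3151 CPM against 59.3 and 160.1 CPM in the other day 3 tumors. Its 9 mesenchymal markers summed to 32841 CPM against 10141 and 10315 CPM, so the day 3 differences of the 8 genes are also given without it. The mesenchymal markers of a fibrosarcoma were high in every tumor, with summed levels of 8768 CPM or more. Nothing in the labels says how far the 3 tumors of a day were handled separately, so p-values measure only the spread between these tumors.

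**Figure D1:**
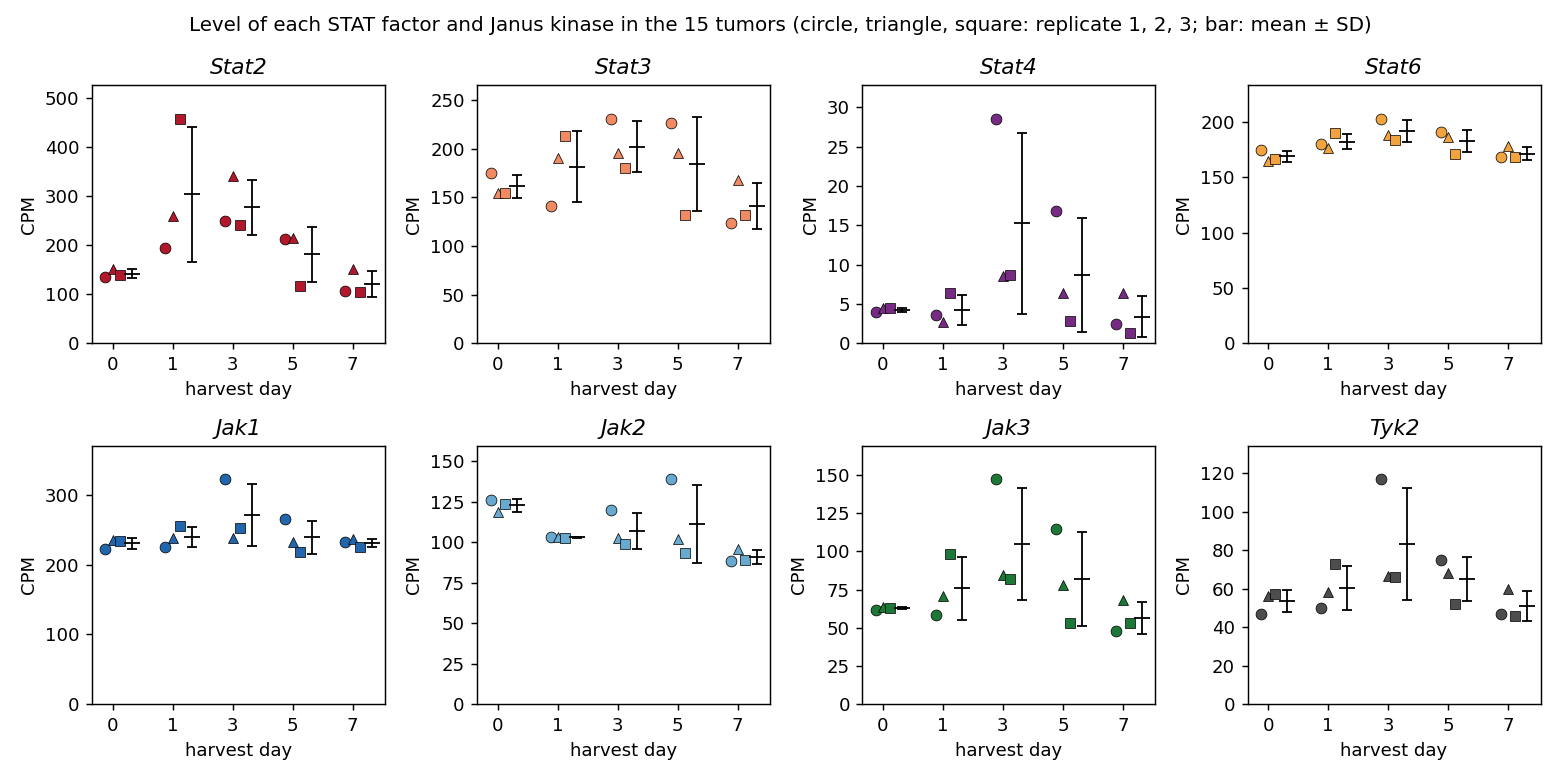
Level of each gene in CPM (vertical axes, starting at 0) by harvest day (horizontal axes). Circles, triangles and squares are replicates 1, 2 and 3 of a day, and bars give the mean ± SD of 3 tumors. Stat2 was highest on days 1 and 3. Replicate 1 of day 3 held the highest value of Stat3, Stat4, Stat6, Jak1, Jak3 and Tyk2. All 3 Jak2 values of days 1 and 7 lay below those of day 0.

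Stat2, the interferon-specific STAT, was the only one of the 8 genes whose mean had doubled by day 1. It read 134, 152 and 139.6 CPM in the untreated tumors, 194, 259 and 457 CPM on day 1 and 249, 341 and 241 CPM on day 3. On day 5 the values were 212, 214 and 117 CPM, and on day 7 they were 106, 152 and 104 CPM. Every tumor of days 1 and 3 lay above every untreated tumor, whereas days 5 and 7 overlapped with day 0. The fold change against day 0 was 2.14 on day 1 (log2 1.10 ± 0.31 SE) and 1.95 on day 3 (log2 0.96 ± 0.30 SE). Neither passed the threshold of 0.05 once the quasi-likelihood p-values of edgeR were adjusted across all genes tested (Benjamini-Hochberg), with adjusted p = 0.926 and 0.115. DESeq2 called the day 3 difference with adjusted p = 0.0267, and not that of day 1, with adjusted p = 0.12, and without day 3 replicate 1 it called neither. The day 1 mean rested in part on replicate 3, the tumor at 457 CPM, since without it the log2 difference was 0.68 and the value on day 3 was the larger of the 2. Without the tumor that stood apart on day 3 the log2 difference was 1.04, so the Stat2 difference was as large without it.

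Irf9, which joins Stat2 in the interferon-stimulated transcription complex, was measured alongside it. Its values were 58.0, 71.6 and 68.0 CPM on day 0, 76.1, 89.3 and 121 CPM on day 1 and 104, 100.5 and 90.3 CPM on day 3. Both treated days lay wholly above day 0, at log2 differences of 0.54 ± 0.17 and 0.58 ± 0.17 (SE). The log2 ratio of Stat2 to Irf9 counts within a tumor averaged 1.11 ± 0.090 in untreated tumors, then 1.60 ± 0.29, 1.48 ± 0.26, 1.19 ± 0.27 and 0.96 ± 0.13 at the 4 later harvests in order (SD, n = 3). In each tumor of days 1 and 3 it was above the highest untreated value of 1.21. Isg15 read 35.1, 43.1 and 37.2 CPM untreated, 98.2, 74.9 and 269 CPM on day 1 and 56.1, 166 and 85.5 CPM on day 3. DESeq2 called it on day 1 (adjusted p = 0.0102), at a log2 difference of 1.94 ± 0.45 (SE), and the day 3 difference was 1.41 ± 0.44 (SE). Usp18, a protease that is itself induced by interferon and blunts signaling at the type I receptor, differed by 1.71 ± 0.40 (SE) on day 1, which DESeq2 also called (adjusted p = 0.0136). Neither was called on day 1 without replicate 3 of that day.

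Tyk2, the kinase bound to the Ifnar1 and Il12rb1 receptor chains, was highest on day 3. It read 47.1, 56.4 and 57.3 CPM on day 0, 50.2, 58.4 and 72.8 CPM on day 1, and 117, 66.6 and 66.1 CPM on day 3. Later values were 74.9, 67.9 and 52.3 CPM on day 5 and 46.8, 59.9 and 46.0 CPM on day 7. All day 3 tumors lay above all untreated ones, but replicate 1 was far above the other 2. The day 3 log2 difference was 0.63 ± 0.23 (SE, adjusted p = 0.12 by edgeR), and without that tumor it was 0.31.

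Jak1, shared by interferon, gp130 and gamma chain receptors, hardly differed between days. Its untreated values were 222, 236 and 234.5 CPM, those of day 1 226, 238 and 255 CPM, and those of day 3 322, 238 and 253 CPM. On day 5 it read 265, 233 and 218 CPM and on day 7 232, 236 and 226 CPM. The day 3 tumors lay above day 0, by 1 tumor widely and by the nearest only from 236 to 238 CPM. The log2 difference was 0.23 ± 0.12 (SE, adjusted p = 0.186 by edgeR) and 0.093 without day 3 replicate 1.

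Among the receptor chains that use these kinases, Ifnar2 read 51.0, 54.3 and 54.7 CPM on day 0 and 151, 83.9 and 70.7 CPM on day 3, a log2 difference of 0.93 ± 0.31 (SE). Ifngr1, the ligand-binding chain for interferon gamma, differed by 0.83 ± 0.29, and Ifnar1 and Ifngr2 by 0.31 ± 0.15 and 0.29 ± 0.13 (SE). All 4 lay wholly above day 0 on day 3, against 38.3% of all genes without overlap in either direction. DESeq2 called Ifnar2 and Ifngr1 (adjusted p = 0.0342 and 0.0439) but not the other 2, against 13.5% of all genes. It called neither without day 3 replicate 1, against 0.553%.

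Stat4, the STAT of interleukin 12 signaling, was the scarcest of the 8 genes and the most variable, with a 20.7-fold range over the 15 tumors. It was at 4.01, 4.47 and 4.44 CPM on day 0, 3.58, 2.79 and 6.45 CPM on day 1 and 28.6, 8.57 and 8.75 CPM on day 3. On day 5 it was at 16.9, 6.40 and 2.91 CPM and on day 7 at 2.48, 6.35 and 1.38 CPM. Unlike Stat2, it showed no separation from untreated tumors on day 1, and it stood wholly above both day 0 and day 1 on day 3. The log2 difference on day 3 was 1.83 ± 0.70 (SE), with adjusted p = 0.129 by edgeR and 0.0474 by DESeq2. Without day 3 replicate 1 it was 1.01, a difference over 1.5 times smaller, with adjusted p = 0.484 by edgeR.

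The interleukin 12 receptor chain Il12rb2 read 1.35, 2.94 and 2.24 CPM on day 0 and 15.7, 7.02 and 6.42 CPM on day 3, a log2 difference of 2.16 ± 0.80 (SE, adjusted p = 0.0399 by DESeq2). Its partner Il12rb1 differed by 0.79 ± 0.38 (SE, adjusted p = 0.124 by DESeq2). Ifng, the interferon gamma gene and a Stat4 target in T and NK cells, read 1.65, 2.05 and 2.72 CPM on day 0, 5.56, 8.31 and 5.29 CPM on day 3 and 0.692, 3.16 and 0.711 CPM on day 7. Each of the 3 genes had all day 3 tumors above day 0, against 38.3% of all genes without overlap in either direction. None was called by DESeq2 without day 3 replicate 1, against 0.553% of all genes.

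Jak3, the leukocyte kinase of the common gamma chain, read 62.0, 63.3 and 63.3 CPM on day 0 and 58.4, 71.0 and 98.5 CPM on day 1. It read 147, 84.9 and 82.1 CPM on day 3, 115, 78.3 and 53.3 CPM on day 5 and 47.9, 68.2 and 53.0 CPM on day 7. The 3 untreated tumors were within 2 CPM of one another, and all day 3 tumors were above them. The day 3 log2 difference was 0.74 ± 0.29 (SE, adjusted p = 0.134 by edgeR and 0.072 by DESeq2), and it was 0.41 without day 3 replicate 1. Il2rg, the gamma chain that Jak3 binds, read 51.0, 65.6 and 70.3 CPM on day 0 and 268, 145 and 119 CPM on day 3, a log2 difference of 1.51 ± 0.51 (SE, adjusted p = 0.0301 by DESeq2). DESeq2 did not call Il2rg without day 3 replicate 1.

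Stat3, which relays interleukin 6 family signals, varied 1.87-fold over all tumors. It read 175, 155 and 155 CPM on day 0, 142, 190.1 and 213 CPM on day 1 and 231, 196 and 179.8 CPM on day 3. The later values were 227, 195 and 132 CPM on day 5 and 124, 168 and 132 CPM on day 7. Only on day 3 did all treated tumors lie above day 0, with the lowest at 179.8 against the highest untreated value of 175 CPM. The log2 difference was 0.32 ± 0.20 (SE, adjusted p = 0.266 by edgeR), and without day 3 replicate 1 it was 0.22. Il6st, which encodes gp130, overlapped between days 0 and 3 at a log2 difference of 0.14 ± 0.13 (SE).

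Stat6, the STAT of interleukins 4 and 13, was the least variable of the 8, with a range of 1.23-fold. It read 175, 165 and 167 CPM on day 0, 180.2, 176 and 189.7 CPM on day 1 and 203, 189 and 184 CPM on day 3. On days 5 and 7 it read 191, 187 and 171 CPM and 168, 178 and 168 CPM. The tumors of days 1 and 3 lay above all untreated ones, by little in amount but with small spread. The log2 difference was 0.11 ± 0.077 (SE) on day 1 and 0.18 ± 0.077 (SE) on day 3, the second with adjusted p = 0.145 by edgeR and 0.0464 by DESeq2, and it was 0.14 without day 3 replicate 1. Il4ra, the receptor chain for interleukin 4, overlapped between days 0 and 3, with a log2 difference of 0.40 ± 0.25 (SE).

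Jak2, the kinase of hematopoietin, growth hormone and interferon gamma receptors, was the one gene whose mean lay below day 0 on every treated day. It read 126, 119 and 124 CPM on day 0, 103, 103 and 103 CPM on day 1 and 119.7, 103 and 99.3 CPM on day 3. On day 5 it read 139, 102 and 93.5 CPM and on day 7 88.2, 96.0 and 89.1 CPM. All tumors of days 1 and 7 lay below all untreated tumors, and the other 2 days overlapped with day 0. The log2 difference was -0.25 ± 0.13 (SE) on day 1 and -0.43 ± 0.13 (SE) on day 7, and neither passed the adjusted test by edgeR (adjusted p = 1 for each). The day 3 log2 difference was -0.20, or -0.28 if day 3 replicate 1 is left out. The unadjusted p was 0.0712 on day 1 and 0.00514 on day 7. On day 7, leaving out any 1 tumor kept the log2 difference between -0.47 and -0.41.

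**Figure D2:**
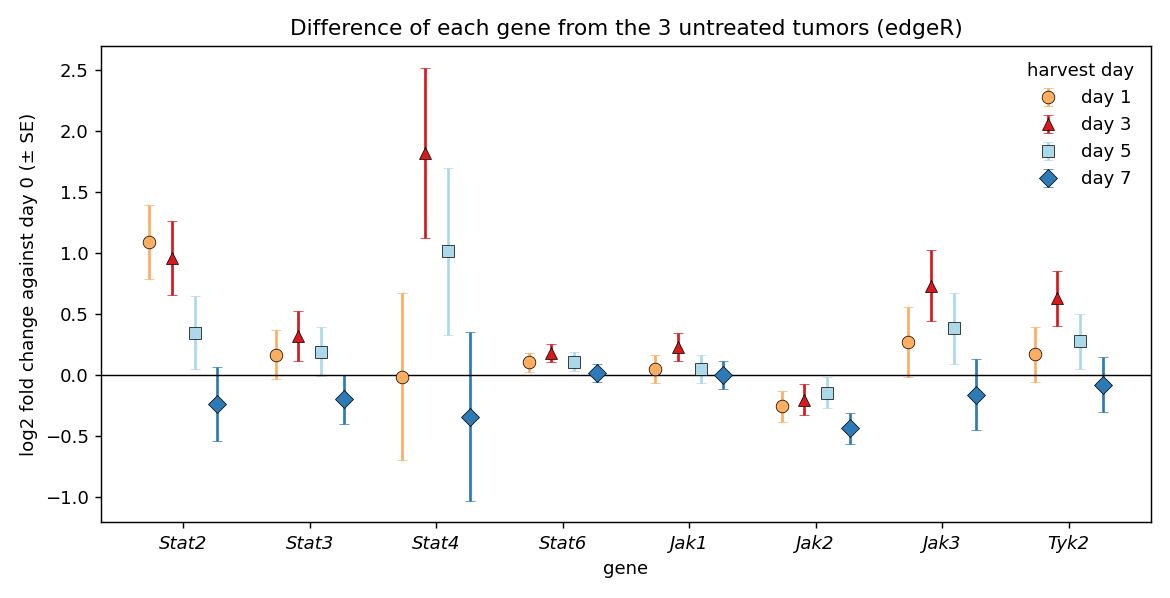
Log2 fold change of each gene against day 0 (vertical axis) with its SE from edgeR, for days 1, 3, 5 and 7 (circle, triangle, square, diamond); the 4 comparisons share the 3 untreated tumors. Stat2 stood near 1 on days 1 and 3, Stat4 was highest on day 3 with a wide error, and Jak2 lay below 0 on all 4 days.

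Set against the untreated tumors, the means of 6 of the 8 genes were higher at the first harvest. On days 3 and 5, 7 were higher, with Jak2 the exception, and on day 7 only Stat6 and Jak1 were higher, by 0.020 and 0.0036 on the log2 scale. The median log2 difference of the 8 genes was 0.14, 0.48, 0.24 and -0.18 at the 4 harvests in order, and 0.27 instead of 0.48 without day 3 replicate 1. Over all genes tested, the median was between -0.025 and 0.0015. The 4 comparisons share the untreated tumors.

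By edgeR with adjustment, 0 of the 8 genes and 0% of all genes tested were called in each of the 7 comparisons, which include day 3 against day 1, day 7 against day 3 and the 4 treated days jointly against day 0. At an unadjusted p under 0.05, day 1 held 1 of the 8 genes, Stat2, against 3.16% of all genes. Day 3 held 5 of them, Stat2, Stat4, Stat6, Jak3 and Tyk2, against 30.0% of all genes. That count was 1 without day 3 replicate 1, against 13.1% of all genes. Day 5 held 0 against 4.80%, and day 7 held Jak2 alone against 2.07%. The joint test held 2 of the 8, Stat2 and Stat4, against 16.2%.

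The groups did not overlap on day 1 for 3 of the 8 genes (Stat2 and Stat6 higher, Jak2 lower), against 12.4% of all genes in either direction. On day 3 they did not overlap for 7 of the 8, all higher, against 38.3% of all genes. Leaving out a tumor cannot undo such a separation, so that the same 7 were higher without day 3 replicate 1 is no check on them. Without that tumor Jak2 was also lower without overlap, but groups of fewer tumors separate more easily. The share of all genes is not given for that smaller set, so nothing is read from this separation. Day 5 gave 0 of 8 against 17.7%, and day 7 gave 1 of 8 against 11.3%.

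DESeq2, the alternative test, called 0 of the 8 genes on day 1 against 0.259% of the genes it tested, and 3 on day 3 (Stat2, Stat4 and Stat6) against 13.5%, or 0 against 0.553% without day 3 replicate 1. It called 0 on day 5 against 0.0742%, 0 on day 7 against 0.0324%, and 2 in the joint test (Stat2 and Stat4) against 7.63%, or Stat2 alone against 1.39% without that tumor. With limma voom, which gave day 3 replicate 1 a sample weight of 0.0719, 0 were called on day 1 against 0%, 1 on day 3 (Stat2) against 7.65%, 1 on day 5 (Stat6) against 15.9% and 0 on day 7 against 0%. Its joint test called 5 of the 8 (Stat2, Stat4, Jak2, Jak3 and Tyk2) against 24.9% of all genes.

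The comparison of day 7 with day 3 asks whether levels differed between the middle and the end of the course. All 8 genes were lower on day 7, and in all 8 the day 7 tumors lay wholly below the day 3 tumors, against 33.0% of all genes without overlap in either direction. The median log2 difference was -0.61 over the 8 genes and 0.020 over all genes. The differences were -2.16 ± 0.71 for Stat4, -1.20 ± 0.31 for Stat2, -0.89 ± 0.29 for Jak3, -0.71 ± 0.23 for Tyk2 and -0.52 ± 0.20 for Stat3 (SE). Those of Jak2, Jak1 and Stat6 were between -0.23 and -0.16. At an unadjusted p under 0.05 there were 5 of the 8 against 35.5% of all genes, and the smallest adjusted p by edgeR was 0.0832, for Stat2. DESeq2 called 4 of the 8, Stat2, Stat4, Jak3 and Tyk2, against 21.6%, and limma voom called 1, Stat2, against 3.41%. DESeq2 called Stat2 alone without day 3 replicate 1, against 1.59% of genes, and without day 3 replicate 3, edgeR called Stat2, Jak3 and Tyk2, against 13.6%. Without day 3 replicate 1 the median log2 difference of the 8 genes was -0.39. That all 8 stayed lower without overlap was bound to follow, since leaving out a tumor cannot undo a separation. Cell type markers differed between the same tumors. DESeq2 called all 12 T cell markers, all 12 macrophage and monocyte markers and all 8 NK cell markers as lower on day 7, at median log2 differences of -2.56, -1.36 and -2.37. It also called 4 of 7 dendritic cell markers as lower (median -1.86). The fall was not limited to immune cells. DESeq2 called as lower all 5 tested adipocyte markers (median -4.22), 5 of 8 skeletal muscle markers (-4.32) and 3 of 5 endothelial markers (-1.35). It called all 5 erythroid markers as higher at a median of 2.97, with summed levels of 10.2 to 28.7 CPM on day 3 and 29.0 to 221 CPM on day 7. These marker calls are not given without day 3 replicate 1, the tumor with the high skeletal muscle sum. The part of these cell types in the differences of the 8 genes was not tested.

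The comparison of day 3 with day 1 sets the first treated harvests side by side. Stat4 was wholly higher on day 3 than on day 1, at a log2 difference of 1.84 ± 0.70 (SE, adjusted p = 0.264 by edgeR), and was the 1 of the 8 genes without overlap, against 14.3% of all genes. Stat2 differed by -0.13 ± 0.30 (SE), a value that became 0.29 without day 1 replicate 3 and so had no stable direction. Stat4 was also the 1 gene with an unadjusted p under 0.05, against 18.4% of all genes, and its log2 difference became 1.01 without day 3 replicate 1. DESeq2 called 0 of the 8 against 0.182% of genes, and limma voom 0 against 0%.

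Levels of different genes were compared as CPM per kilobase of merged exons. On day 0, Stat6 was highest at 38.4 ± 1.19, followed by Jak1 at 31.9 ± 1.06, Jak2 at 24.4 ± 0.78, Stat2 at 23.9 ± 1.51, Stat3 at 17.0 ± 1.24, Jak3 at 11.7 ± 0.14, Tyk2 at 7.80 ± 0.82 and Stat4 at 1.11 ± 0.066 CPM per kilobase (SD, n = 3). Jak2 and Stat2 overlapped, and all other neighbours in this order were separate. On day 1 Stat2 was first at 51.2 ± 23.1 and on day 3 at 46.7 ± 9.43 CPM per kilobase, in both cases overlapping with Stat6 below it. By day 7 Stat2 had rank 3 at 20.4 ± 4.53 CPM per kilobase and overlapped with Jak2. Stat4 was last on every day. The order depends on the length used: with the longest annotated transcript, Jak1 took rank 1 and Jak2 rank 5 on day 0.

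**Figure D3:**
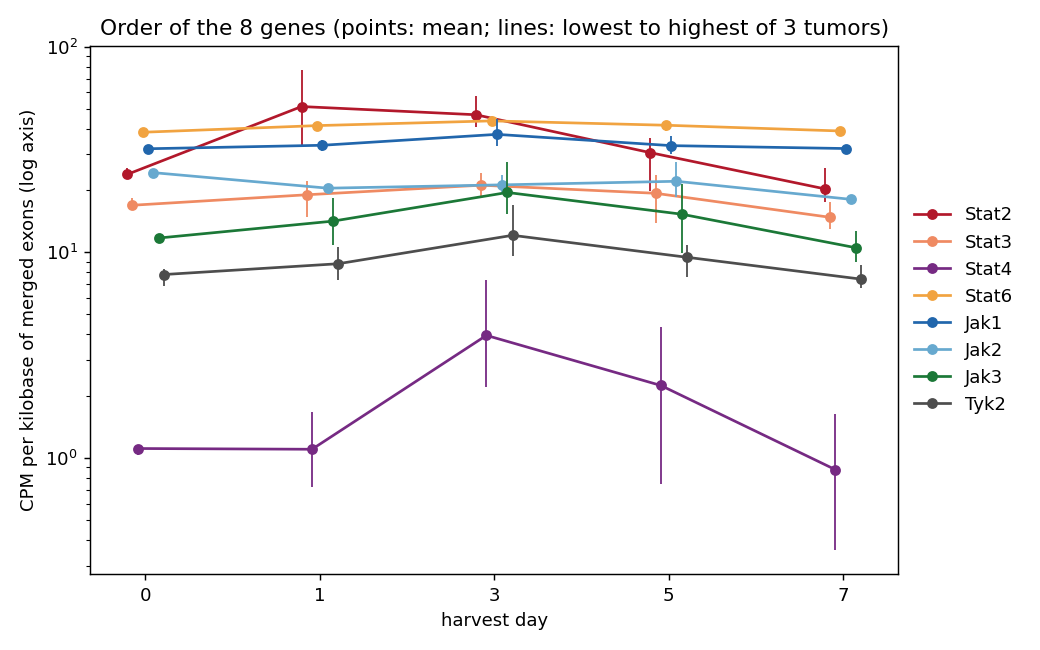
CPM per kilobase of merged exons (log axis) by harvest day for the 8 genes, with the mean as a point and the lowest to highest of 3 tumors as a vertical line. Stat2 had rank 4 on day 0, rank 1 on days 1 and 3 and rank 3 on day 7, and Stat4 was last throughout.

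The genes whose pattern over the 15 tumors was most like each member were found by Pearson's r of log2 CPM, as a description. For Stat2 they were Zbp1, Pml and Parp14 (r = 0.987, 0.985 and 0.981), of which Zbp1 senses nucleic acids and Pml organises nuclear bodies. For Stat4 they were Gimap8, Cd6 and Sla2 (r = 0.997, 0.991 and 0.989), genes of lymphocytes, and the same 3 genes came first without day 3 replicate 1. For Jak3 they were Prkcd, Rhof and Mansc1 (r = 0.981, 0.976 and 0.974), and for Tyk2 Nagk, Agtrap and Amdhd2 (r = 0.99, 0.984 and 0.982). With day 3 replicate 1 left out, 1 of the 3 genes stayed for Stat2 and for Jak3 and 0 of 3 for Tyk2.

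Stat3 was most like Cmip, App and Mvp (r = 0.97, 0.969 and 0.959), Stat6 like Tcirg1, Zdhhc24 and Fbxo7 (r = 0.96, 0.953 and 0.953), and Jak1 like Galnt15, Fam13a and Gpr173 (r = 0.974, 0.973 and 0.97). Jak2 had the lowest likeness of the 8, to Nkd2, Hmg20b and Nos3 (r = 0.869, 0.863 and 0.838). Once day 3 replicate 1 was left out, 2 of the 3 genes stayed for Stat3, Stat6 and Jak2, and 1 of 3 for Jak1. The r of Jak1 with its 3 genes was then 0.911, 0.909 and 0.905. Among the members themselves, r over 15 tumors was 0.95 for Jak3 and Tyk2 and 0.93 for Jak3 and Stat3, and 0.18 for Jak2 and Stat2. All these values share the same libraries, their depth and the tumor that stood apart.

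Markers of immune cells moved over the same tumors. The 12 T cell markers, all detected, summed to 41.7 to 57.8 CPM in untreated tumors, 33.4 to 109 CPM at the first harvest, 124 to 415 CPM on day 3, 36.5 to 230.4 CPM on day 5 and 16.6 to 76.0 CPM at the end. The 12 macrophage and monocyte markers summed to 2382 to 3237 CPM on day 0 and 5201 to 12077 CPM on day 3, and the 8 NK cell markers to 96.0 to 141 CPM and 254 to 421 CPM. In bulk tumors, fewer cells of a type and less RNA per cell cannot be told apart. Stat4 correlated with the T cell sum at r = 0.981 over 15 tumors and 0.973 over the 14 without day 3 replicate 1, and the list shares Cd6 with the genes most like Stat4. Other sums came close, namely dendritic cell (0.965 and 0.944), endothelial (0.952 and 0.924), neutrophil (0.931 and 0.919) and adipocyte (0.931 and 0.888). The high r is thus not particular to T cell markers. Over 15 tumors Tyk2 was closest to the macrophage sum (r = 0.947) and Jak3 to the T cell sum (r = 0.937). Over the 14 tumors Tyk2 was instead closest to the T cell sum (r = 0.931, with 0.926 for NK cells and 0.912 for macrophages) and Jak3 to the neutrophil sum (r = 0.91, with 0.908 for T cells), so which list was closest rested on that tumor. Stat2 was closest to the NK cell sum at r = 0.798, and Jak2 had r = 0.30 with the macrophage sum and 0.52 with the T cell sum.

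**Figure D4:**
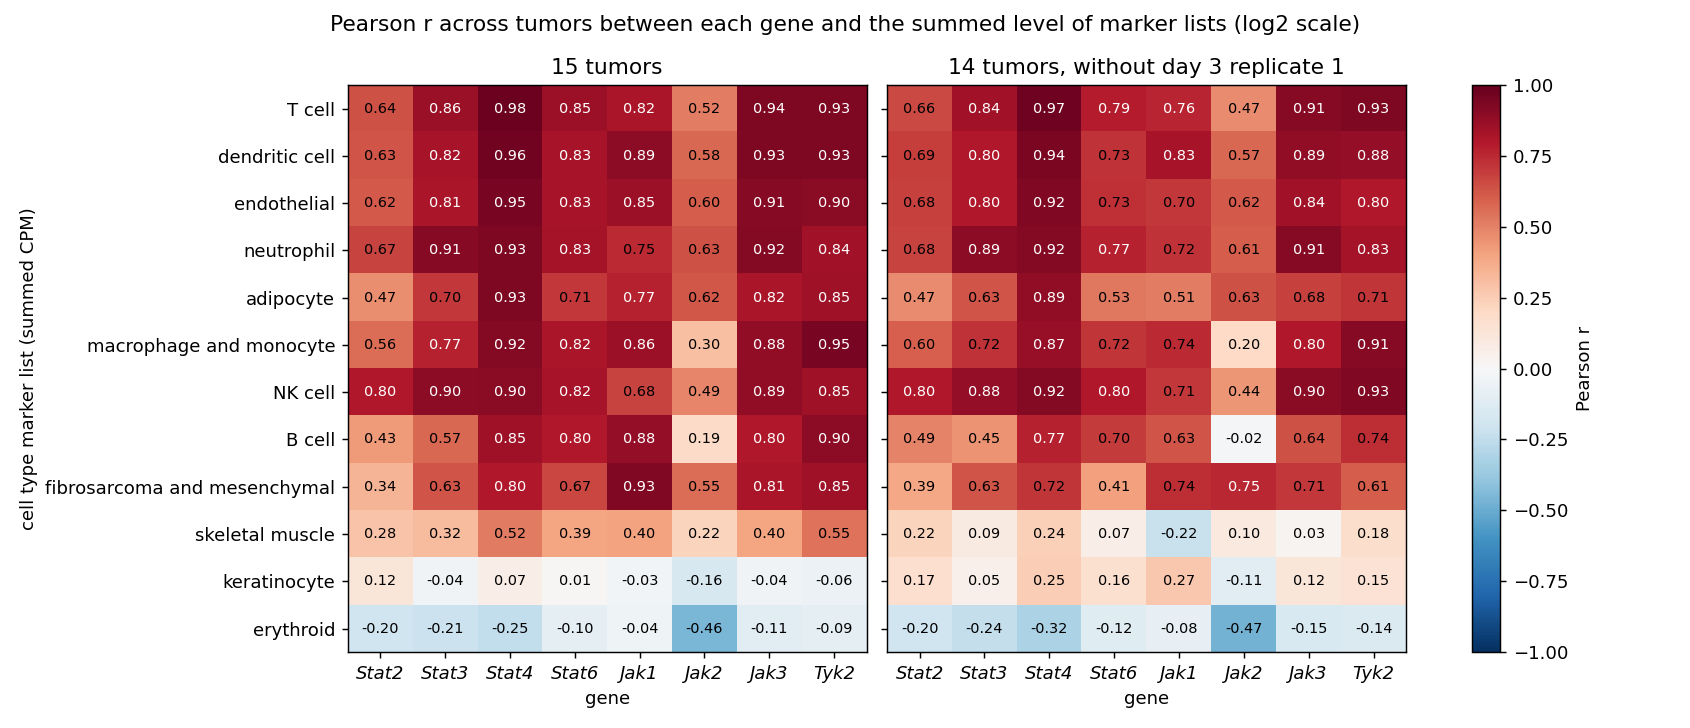
Pearson r across tumors (color and printed value) between log2 CPM of each gene (columns) and the log2 summed CPM of 12 cell type marker lists (rows), over 15 tumors on the left and without day 3 replicate 1 on the right. Stat4 had the highest values with T cell markers, 0.98 and 0.97, Jak2 had the lowest value of the 8 genes with each of the 6 immune lists, and the values with skeletal muscle markers were lower on the right for all 8 genes.

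Ratios within a tumor set the genes against Ptprc, which encodes the leukocyte surface protein CD45. The log2 ratio of Stat4 to Ptprc counts averaged -5.07 ± 0.29 in untreated tumors and -5.36 ± 0.31, -5.03 ± 0.35, -5.19 ± 0.74 and -5.48 ± 0.25 at the 4 later harvests in order (SD, n = 3). On day 3 this ratio differed from day 0 by less than the spread between tumors. The ratio of Jak3 to Ptprc was -1.20 ± 0.36 on day 0 and -2.06 ± 0.19 on day 3, and that of Tyk2 to Ptprc -1.44 ± 0.23 and -2.39 ± 0.18 (SD, n = 3). For these 2 kinases all day 3 tumors lay below all day 0 tumors, so they were higher on day 3 but less so than Ptprc, whose log2 difference was 1.61 ± 0.49 (SE). The part of cell composition in the differences of Stat4, Jak3 and Tyk2 was not tested.

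The wider pathway was described with lists of receptors, inhibitors and target genes. The 16 genes of Stat2's partner and targets were all higher on day 1, with a median log2 difference of 1.63, and all 16 had an unadjusted p under 0.05, against 3.16% of all genes. Their medians at the later harvests were 1.35, 0.45 and 0.083, and on day 7 12 were higher and 4 lower. DESeq2 called 10 of the 16 on day 1, against 0.259% of all genes, and 11 on day 3, against 13.5%. It called 8 on day 3 without replicate 1 of that day, against 0.553%, and 2 on day 1 without its replicate 3, against 0.0325%, and edgeR called 0 with adjustment. Irf7, which drives interferon genes, was the highest on day 3 at 2.63 ± 0.51 and Irf9 the lowest at 0.58 ± 0.17 (SE). It was the one positive list whose median was larger on day 1 than on day 3, but without day 1 replicate 3 the day 1 median was 0.95, below that of day 3.

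With all 15 tumors, receptor lists had their highest medians on day 3. The DESeq2 calls named next for receptors, targets and inhibitors were picked out after their values were seen, and each count is set against the 13.5% of all genes that DESeq2 called on day 3. All 9 genes of the common gamma chain and interleukin 4 receptor list were higher on day 3 at a median of 1.48, and DESeq2 called 5 of them, Il2rg, Il2rb, Il7r, Il9r and Il21r. All 3 tested interleukin 12, 23 and 10 receptor genes were higher at a median of 1.71, with Il12rb2 and Il10ra called. The 7 tested hematopoietin and growth hormone receptors had a median of 1.20 with Csf2ra and Csf3r called, the 6 interferon receptor chains 0.88 with Ifnar2, Ifngr1 and Il10rb called, and the 6 gp130 family receptors 0.70 with Il27ra called. Without day 3 replicate 1, DESeq2 called 0 genes of these 5 lists, against 0.553% of all genes, and the medians were 1.05, 1.06, 0.477, 0.26 and 0.18. The day 5 medians of the interferon receptors (0.35) and of the hematopoietin and growth hormone receptors (0.480) were then the larger ones, and that of the gp130 family was level with day 3. On day 1 the medians were between 0.093 and 0.48 and below 0 for all 5 lists without day 1 replicate 3. The highest receptor of each list on day 3 was Il2rb at 2.08, Il12rb2 at 2.16, Csf3r at 2.10, Il10rb at 1.01 and Il11ra1 at 1.87, and the lowest were Il13ra1 at 0.024, Il12rb1 at 0.79, Ghr at 0.023, Ifngr2 at 0.29 and Il6ra at 0.053 (log2 differences).

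Target lists of the other STATs were mixed. Of 6 Stat4 targets, 4 were higher and 2 lower on day 3 (median 1.87, with Il12rb2 and Il18r1 called by DESeq2), from Il18r1 at 2.28 to Il18rap at -0.48, both chains of the interleukin 18 receptor. Of 10 Stat6 targets, 8 were higher on day 3 (median 1.46, 0 called), from Retnla at 4.70 to the mannose receptor Mrc1 at -0.39. Retnla, a marker of alternatively activated macrophages, read 35.6, 0.919 and 2.02 CPM on day 3 against 0.28 to 0.819 CPM on day 0, so 1 tumor set its value. Of 10 Stat3 targets, 7 were higher and 3 lower on day 3 (median 0.33), and DESeq2 called Fgl2 as higher and Junb and Il1r1 as lower. They ranged from Fgl2 at 1.92 to the interleukin 1 receptor Il1r1 at -0.59. DESeq2 called 0 genes of these 3 lists once day 3 replicate 1 was left out, with medians of 1.49, 0.96 and 0.29.

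Inhibitors of the pathway showed no common direction. Of the 8 SOCS genes, whose proteins block kinases or receptors, 4 were higher and 4 lower on day 3 (median -0.026). Socs1, which blocks Jak1 and Tyk2, read 17.5, 17.6 and 18.8 CPM on day 0, 16.3, 21.7 and 44.8 CPM on day 1 and 21.6, 33.9 and 26.9 CPM on day 3, at a log2 difference of 0.61 ± 0.41 (SE) on day 3. Socs3 was at 103 to 111 CPM on day 0 and 91.1 to 131 CPM on day 3 and overlapped, while Cish had all day 3 tumors above day 0 (log2 1.07 ± 0.57 SE). Socs2 was the highest at 1.12 and Socs5 the lowest at -0.51 (log2). By DESeq2 the one SOCS gene called was Socs4, as lower at -0.36 ± 0.12 (SE), and by edgeR none was. Without day 3 replicate 1, DESeq2 called none of the 8 SOCS genes. Of 10 phosphatases, PIAS proteins and Usp18, 6 were higher on day 3 (median 0.13) and DESeq2 called 4 as higher, Ptpn1, Ptpn6, Ptprc and Usp18, of which Usp18 alone was called without day 3 replicate 1. Ptpn6, the leukocyte phosphatase SHP-1, read 54.1, 84.1 and 81.9 CPM on day 0 and 306, 140.0 and 144 CPM on day 3 (log2 1.42 ± 0.44 SE, adjusted p = 0.0215 by DESeq2), while the broadly expressed Ptpn2 overlapped at -0.081 ± 0.11 (SE).

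**Figure D5:**
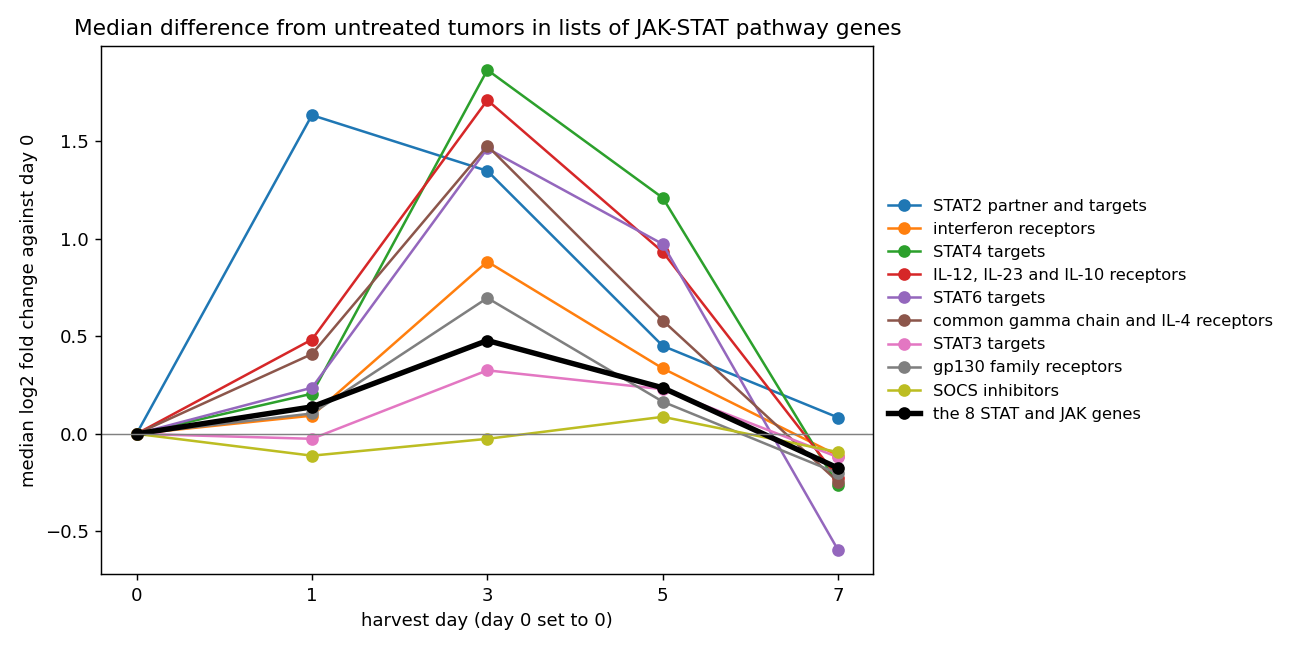
Median log2 fold change against day 0 (vertical axis) by harvest day (horizontal axis) for lists of pathway genes, with the 8 STAT and JAK genes as a thick black line; all comparisons share the day 0 tumors. The Stat2 partner and target list was highest on day 1 at 1.63, the receptor lists drawn were highest on day 3 with all 15 tumors, and the SOCS list stayed between -0.11 and 0.087. Without day 3 replicate 1, which is not drawn, the interferon receptor list was highest on day 5.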

How the data were processed

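RNA from 15 tumors was sequenced as single-end reads of 100 bases after poly(A) selection. The authors quantified reads with kallisto against mm10 (GRCm38) and summarised them to genes with tximport; the transcript set and strand setting are not given in the sources used here. The deposited values are expected counts (estimated counts) per gene, stored as whole numbers, with 1 column per tumor. One row with a gene name turned into a date, at most 0.0268% of counts, was left out. Genes with CPM over 0.366, the study's threshold, in at least 3 tumors were kept (15494). TMM scaling (factors 0.967 to 1.02) and edgeR 4.0.16 quasi-likelihood tests were run in R 4.3.3 with all 15 tumors in 1 fit by harvest day, at an adjusted p of 0.05. DESeq2 1.42.0, limma 3.58.1 (voom with sample weights), median-of-ratios scaling, no filter, a replicate block, fits of only the compared days and leaving out each tumor were alternatives. Scripts were tested on simulated counts. Log2 CPM used a prior count of 2. Symbols were matched to GENCODE M21 annotation for lengths.

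The 8 genes and all lists were chosen with earlier results of these data known. The named genes were the 8 members, the 3 genes most like each, a fixed set of receptors, inhibitors and products (Irf9, Ifnar1, Ifnar2, Ifngr1, Ifngr2, Il6st, Il4ra, Il2rg, Il12rb1, Il12rb2, Socs1, Socs3, Cish, Usp18, Ptpn6, Ptpn2, Isg15 and Ifng) and the highest and lowest gene of each list on day 3. Other rows of both families were not analysed here. Same-numbered tumors of different days did not deviate together more than others did. Their r ran from -0.62 to 0.51 (30 pairs, median -0.096), and that of differently numbered tumors from -0.59 to 0.61 (60 pairs, median 0.021). Replicate numbers were therefore not used as pairs.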

Additional observations from a re-analysis of the deposited data

How the results depend on the processing

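Of 1152 member differences recomputed, 1107 kept their direction and side of the threshold. Keeping the side here means staying uncalled, since the main edgeR fit called no gene at all. Of the 1152, 720 came from edgeR fits without a single tumor, many of them without a tumor of a day not compared. Much of the agreement is therefore built in and does not measure stability. By edgeR with all tumors no member was called. The counts that moved from 0 follow, each with the share of all tested genes called by the same fit in parentheses. On day 3 against day 0, DESeq2 called 3 (13.5%) and limma voom 1 (7.65%), with 4 by DESeq2 (17.8%) if day 1 replicate 3 is left out and 1 by voom (3.31%) if day 3 replicate 1 is. On day 5, voom called 1 with that tumor (15.9%) and 1 without it (17.0%). On day 3 against day 1, DESeq2 called 1 (13.3%) without day 1 replicate 3. On day 7 against day 3, DESeq2 called 4 (21.6%) and voom 1 (3.41%). EdgeR without single tumors called 0 to 3 there, the 3 (13.6%) without day 3 replicate 3, while DESeq2 leaving out day 3 replicate 1 called 1 (1.59%), and 4 (25.0%) if day 1 replicate 3 was the one left out. In the joint test DESeq2 called 2 (7.63%) and voom 5 (24.9%), which became 1 (1.39%) and 4 (21.6%) without day 3 replicate 1, and 2 (15.7%) by DESeq2 without day 1 replicate 3. DESeq2 and voom without single tumors were chosen after seeing the data, as was leaving out tumors of the days not compared. The cause of these moves was not tested.

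Some directions turned. Against day 0, where Stat4 on day 7 was -0.34 with all tumors, single tumors left out, Stat4 ranged from -0.43 to 0.22 on day 1 and from -1.16 to 0.037 on day 7, Jak1 from -0.033 to 0.11 on day 5 and -0.024 to 0.021 on day 7, and Stat6 from -0.0082 to 0.046 on day 7. Jak1 on day 7 was -0.018 by voom and -0.0053 by voom without day 3 replicate 1. On day 3 against day 1, Stat2 was 0.18 by voom, 0.21 by voom without day 3 replicate 1, 0.31 by DESeq2 without day 1 replicate 3 and from -0.37 to 0.29 with single tumors left out. Jak2 was -0.031 by voom, -0.034 by voom and -0.033 by DESeq2 without day 3 replicate 1, and from -0.036 to 0.11 with single tumors left out. The replicate block gave 0 called members in each comparison, and Stat4 on day 1 was 0.064 with it. The leave-one-out fits assume that a day with 2 tumors left varies like the other days. Stat4, the scarcest member, rested on 33 to 709 counts per tumor.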
